A study of Mus musculus with 36 samples.

Results

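The 6 genes described here are Tmtc3, Btk, Npy, Sugt1, Kpna3 and Gipc2, all chosen by how far their array signals differed between OSKT and OSK clones of induced pluripotent stem (iPS) cells. They are 6 of the 10533 features tested. Members were found by their array-annotation symbol, which gave 7 probes, of which 1 (the second Tmtc3 probe) held placeholder values only, so each gene rests on 1 measured probe of the 18720 in the table. All 6 passed the filter on dim probes. The differences between OSKT and OSK clones chose the genes and are therefore given as a description, with no test.

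The iPS clones came from mouse embryonic fibroblasts in which sets of transcription factors were overexpressed. There were 8 OSE clones, made with Oct4, Sox2 and Esrrb, 11 OSK clones with Klf4 in place of Esrrb, and 11 OSKT clones that received Tbx3 on top of the OSK factors. Embryonic stem (ES) cells served as reference: 4 replicates of R1, kept on mESC medium, and 2 replicates of D3, kept on MEF medium, so line and medium cannot be told apart. How the factors were delivered, the strain and the passage are not given in the sources used here, and the clones compared share Oct4 and Sox2. Total RNA was read on 36 one-colour Illumina bead arrays.

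Reprogramming returns a differentiated cell to a state that resembles the ES cell, and Tbx3 is a T-box transcription factor of the network that maintains that state. None of the 6 genes is a classical member of this network. Tmtc3 encodes a transmembrane protein of the endoplasmic reticulum that takes part in O-mannosylation of cadherins. Btk is a Tec-family tyrosine kinase that acts below the B-cell receptor, and Npy encodes neuropeptide Y, a secreted peptide of neurons. Sugt1 is a co-chaperone of Hsp90 that also works in the assembly of kinetochores and of SCF ubiquitin ligases. Kpna3 is an importin alpha, an adaptor that carries proteins with a nuclear localization signal to importin beta, and Gipc2 is a PDZ-domain protein that binds the tails of membrane receptors.

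Values are normalized log2 signals unless called unscaled, and unscaled values are the deposited intensities after background subtraction. A signal counted as above background where it passed the 99th percentile of the array's estimated background (45.2 to 90.8 intensity units). Between 8675 and 9720 probes per array passed it, and the 75th percentile of the unscaled signal ran from 337.3 to 1056.7. Precision is limited by the number of arrays. Of 14 marker genes of pluripotent cells, 13 were measured and all 13 were above background on each of the 36 arrays. Certain clones resembled each other as closely as R1 replicates do, so that 5 OSE, 6 OSK, 6 OSKT, 1 R1 and 1 D3 distinct samples remained when such arrays were averaged. OSK clones 1 to 4 formed 1 such cluster, and OSKT clones 1 and 4 and OSKT clones 2 and 3 each formed one. The sample titles call the ES samples replicates without giving the kind, and p-values measure the spread between these samples only.

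Some arrays stood apart for these genes. OSKT clones 2 and 3 differed from the other 9 OSKT clones in Tmtc3, Npy and Gipc2, although over all tested features their nearest arrays were each other (root mean square log2 difference 0.169) and then OSKT clone 1 (0.227 and 0.246), ahead of OSK clones 1 to 4 (0.316 to 0.378). OSE clone 8 and OSK clone 8 stood apart from their sets in Sugt1 and Kpna3, and OSKT clone 8 was the lowest of its set in both genes. Clone 8 was also the dimmest array of each set, with a 75th percentile of the unscaled signal of 337.3 in OSE, 345.1 in OSK and 378 in OSKT. The Tbx3 probe read 10.36 and 10.48 in OSKT clones 2 and 3, 10.56 to 11.22 in the other OSKT clones and 10.48 to 11.24 in OSK clones. Since these ranges overlap, and it is not known whether the probe reads the transgene, the array does not check the OSKT label.

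Tmtc3 and Btk were the genes that stood higher in OSKT clones. Over the 36 arrays their levels had r = 0.864, which the choice of both for high OSKT signals largely fixes, and deviations from group means had r = 0.566. OSKT clones 2 and 3, which cluster together, were the lowest OSKT clones in both genes. Their part in the second value was not tested. The RefSeq promoter windows of both genes (GRCm38.p6, minus strand, 300 bases across the transcription start) are shown because these are the members that stood higher in OSKT clones. Capitals mark CG dinucleotides, of which the Tmtc3 window at chr10:100487298-100487597 holds 22 and the Btk window at chrX:134583091-134583390 holds 3.
Tmtc3: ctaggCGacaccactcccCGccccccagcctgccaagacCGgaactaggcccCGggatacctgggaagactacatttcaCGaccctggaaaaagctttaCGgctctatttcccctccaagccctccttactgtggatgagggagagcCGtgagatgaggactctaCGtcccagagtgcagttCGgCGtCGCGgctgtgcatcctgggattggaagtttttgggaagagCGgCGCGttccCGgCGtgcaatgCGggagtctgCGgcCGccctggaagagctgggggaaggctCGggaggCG
Btk: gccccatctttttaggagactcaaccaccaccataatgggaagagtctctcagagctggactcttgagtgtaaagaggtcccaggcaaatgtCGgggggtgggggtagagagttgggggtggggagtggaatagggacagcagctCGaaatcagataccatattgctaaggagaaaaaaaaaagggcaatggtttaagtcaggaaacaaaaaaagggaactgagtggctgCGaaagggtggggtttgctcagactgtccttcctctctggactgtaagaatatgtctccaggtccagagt
The median over the 32851 windows of the table was 7 CG dinucleotides. The Npy and Sugt1 windows held 24 and 31, and Kpna3 and Gipc2 had no window to show. The T-box motif GGTGTGA, searched on both strands (also as TCACACC), was in 0 of the 4 member windows and in 3.98% of all windows. This says only that these letters are not in these windows.

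Tmtc3 was the feature with the highest difference between OSKT and OSK clones (log2 2.06, SE 0.32), ahead of Ct55 at 1.65. Its signal was either on or off. In OSKT clones 1 and 4 it was 9.09 and 9.13, in clones 5 to 11 it lay between 9.29 and 9.44 with a median of 9.34, and in clones 2 and 3 it was 6.79 and 6.69. The unscaled intensities of the 9 high clones ran from 472 to 1037, and those of clones 2 and 3 were 46.3 and 33.6.
All 25 arrays outside the OSKT set lay at the level of clones 2 and 3. OSE clones had a lowest, median and highest value of 6.47, 6.79 and 7.24, and OSK clones of 6.36, 6.87 and 7.01. The R1 replicates were at 6.81, 6.67, 6.99 and 6.38, and the D3 replicates at 6.53 and 6.78. Only 1 OSE, 2 OSK and 1 R1 array passed the background threshold, against 9 of 11 OSKT clones, so the OSKT mean of 8.84 ± 1.04 (SD, n = 11) describes no clone. Against the OSK clones raised to the detection limit, the mean was at least 3.63-fold higher, at least 1.92-fold within clones 1 to 4 and at least 5.23-fold within clones 5 to 11.

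Btk, the X-linked kinase, was above background in 7 of 36 arrays, which were OSKT clones 5 to 11. There it read 7.10 to 7.50 with a median of 7.30 (unscaled 61.1 to 111.4). OSKT clones 1 and 4 came next at 6.77 and 6.86, with unscaled signals of 44.9 and 87.0 against thresholds of 56.0 and 90.8, and clones 2 and 3 followed at 6.25 and 6.16.
OSE clones ran from 4.93 through a median of 5.43 to 6.14, and OSK clones from 5.32 through 5.77 to 6.17. The R1 replicates were at 5.63, 5.69, 5.18 and 4.79 and the D3 replicates at 5.38 and 4.97, all below background, so these numbers carry no order. With the OSK clones at the detection limit, Btk was at least 1.03-fold higher in OSKT clones and at least 1.27-fold higher within clones 5 to 11.
Btk is best known from B cells, so blood markers were read beside it. Of 14 blood markers 13 were measured, and 8 of them, Ptprc, Cd79a, Ikzf1, Cd52, Tyrobp, Fcer1g, Cd48 and Itgb2, were below background on all 36 arrays. The summed unscaled level of the 13 was 6066 to 13259 in OSKT, 4346 to 9185 in OSK, 1449 to 4207 in OSE, 19354 to 23982 in R1 and 12224 to 15738 in D3 arrays. Laptm5 alone made up 67.3% to 96.0% of this sum per array. Was, another of the 3 blood markers above background on all arrays, had a mean of 9.52 in OSKT and 8.65 in OSK. Its mean was 7.53 in OSE, 9.01 in R1 and 7.96 in D3. Coro1a, the last of these markers, was lowest in OSKT (7.51), with 8.11 in OSK, 8.29 in OSE, 7.60 in R1 and 8.46 in D3. The sums are not scaled for array brightness, and the part of these markers in the result was not tested.

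**Figure D1:**
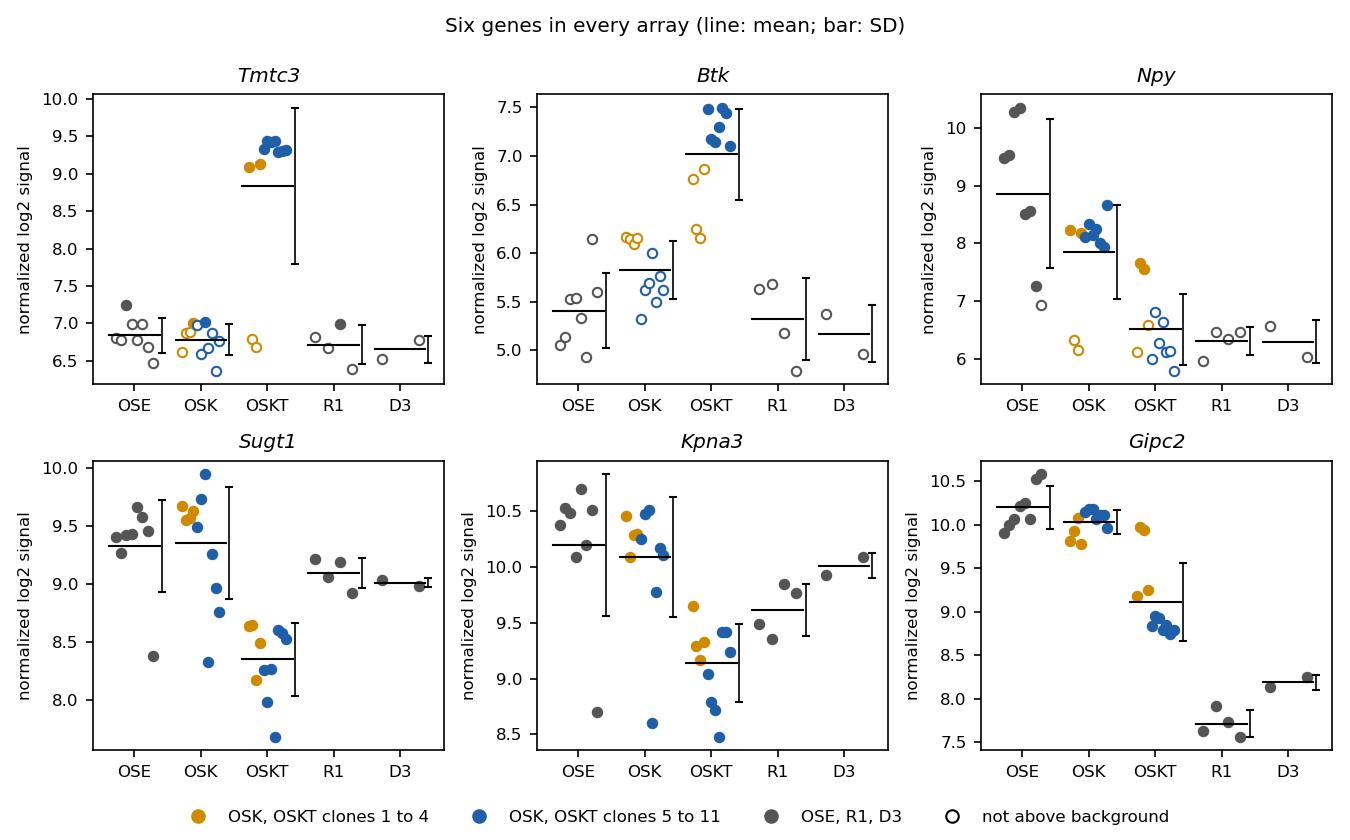
Normalized log2 signal (vertical axis) of the 6 genes in every array by group (horizontal axis); filled points are above background, open points are not, orange and blue mark OSK and OSKT clones 1 to 4 and 5 to 11, lines are means and bars SDs. Tmtc3 splits the OSKT set into 9 clones between 9.09 and 9.44 and 2 clones at 6.79 and 6.69, and Gipc2 separates all iPS clones from R1.

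Npy had the second lowest difference between OSKT and OSK clones (log2 -1.33, SE 0.31), after Sp5 at -1.44 and before Krt8 at -1.17. In OSKT clones it was above background in clones 2 and 3 (7.65 and 7.55) and in none of the other 9, which lay between 5.80 and 6.81. These are the same 2 clones in which Tmtc3 was off. Among OSK clones the pattern was the reverse, with clones 2 and 3 below background (6.33 and 6.16) and the other 9 between 7.93 and 8.66.
OSE clones spanned the widest range. Clones 1 to 8 read 9.48, 9.53, 10.28, 10.35, 8.52, 8.56, 7.26 and 6.94, and near-identical OSE clones (1 and 2, 3 and 4, 5 and 6) had near-equal values. This did not hold in OSK clones 1 to 4, which also cluster together but read 8.23, 6.33, 6.16 and 8.19. The R1 replicates (5.97, 6.47, 6.34 and 6.48) and the D3 replicates (6.57 and 6.04) were all below background.
With the dimmer group at the detection limit, Npy was at least 1.69-fold lower in OSKT than in OSK clones and at least 2.29-fold lower within clones 5 to 11. Within clones 1 to 4, where 2 clones of each set were on, the difference was -0.25 (SE 0.68). Of 14 neural markers 13 were measured. Map2, Pax6, Sox1, Dcx and Syt1 were below background on all 36 arrays, and Tubb3, Stmn2, Elavl3 and Gap43 above it on all. Their summed unscaled level was 1726 to 4354 in OSE, 1549 to 3597 in OSK, 1849 to 5382 in OSKT, 4685 to 6260 in R1 and 4233 to 5528 in D3 arrays. These sums are not scaled for array brightness either, and the part of neural markers in the result was not tested.

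Gipc2 was above background on every array and 1.89-fold lower in OSKT than in OSK clones (log2 -0.92, SE 0.14). OSKT clones 5 to 11 lay between 8.74 and 8.95 with a median of 8.83, clones 1 and 4 at 9.17 and 9.25, and clones 2 and 3 at 9.97 and 9.94. OSK clones ran from 9.78 through a median of 10.08 to 10.18, so OSKT clones 2 and 3 were within the OSK range and the other 9 below it.
The ES lines were lower than any iPS clone, with R1 replicates at 7.63, 7.92, 7.73 and 7.56 and D3 replicates at 8.13 and 8.24. OSE clones were highest, from 9.90 through 10.14 to 10.59. In order of the means the groups were R1 (7.71 ± 0.15, n = 4), D3 (8.19 ± 0.08, n = 2), OSKT (9.11 ± 0.45, n = 11), OSK (10.03 ± 0.14, n = 11) and OSE (10.20 ± 0.25, n = 8, all SD). OSE and OSK ranges overlapped, as did OSK and OSKT ranges, while R1 and D3 did not.

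Sugt1 and Kpna3 were lower in all 11 OSKT clones than the OSK mean. Sugt1 was 2.01-fold lower (log2 -1.01, SE 0.17) and Kpna3 1.93-fold lower (log2 -0.95, SE 0.19). The differences within clones 1 to 4 and within clones 5 to 11 were -1.12 and -0.94 for Sugt1 and -0.92 and -0.97 for Kpna3.
Sugt1 read 8.64, 8.65, 8.17 and 8.49 in OSKT clones 1 to 4 and 7.68 to 8.60 in clones 5 to 11. In OSK clones 1 to 4 it read 9.68, 9.55, 9.57 and 9.63, above every OSKT clone, and in OSK clones 5 to 11 it ran from 8.33 through 9.26 to 9.95. The lowest OSK value was that of clone 8. R1 replicates lay at 9.22, 9.07, 9.19 and 8.93 and D3 at 9.04 and 8.99, above all OSKT clones and within the OSK range.
Kpna3 read 9.65, 9.29, 9.16 and 9.33 in OSKT clones 1 to 4 and 8.47 to 9.42 in clones 5 to 11. In OSK clones 1 to 4 it read 10.45, 10.09, 10.28 and 10.29, and in clones 5 to 11 it ran from 8.60, in clone 8, through 10.17 to 10.51. R1 replicates were at 9.49, 9.35, 9.85 and 9.77 and D3 replicates at 9.93 and 10.09.
OSE clone 8 was low in both genes too. It read 8.39 for Sugt1, where the other 7 OSE clones ran from 9.27 to 9.66, and 8.70 for Kpna3, where they ran from 10.09 to 10.69. OSKT clone 8 read 7.68 for Sugt1 and 8.47 for Kpna3, the lowest values of all arrays. Without OSK clone 8 the difference between OSKT and OSK clones was -1.11 for Sugt1 and -1.10 for Kpna3, and without OSKT clone 8 it was -0.94 and -0.89. The low signals of clone 8 thus recurred in all 3 iPS sets, each time on the dimmest array of the set, and the part of array brightness in the result was not tested.

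**Figure D2:**
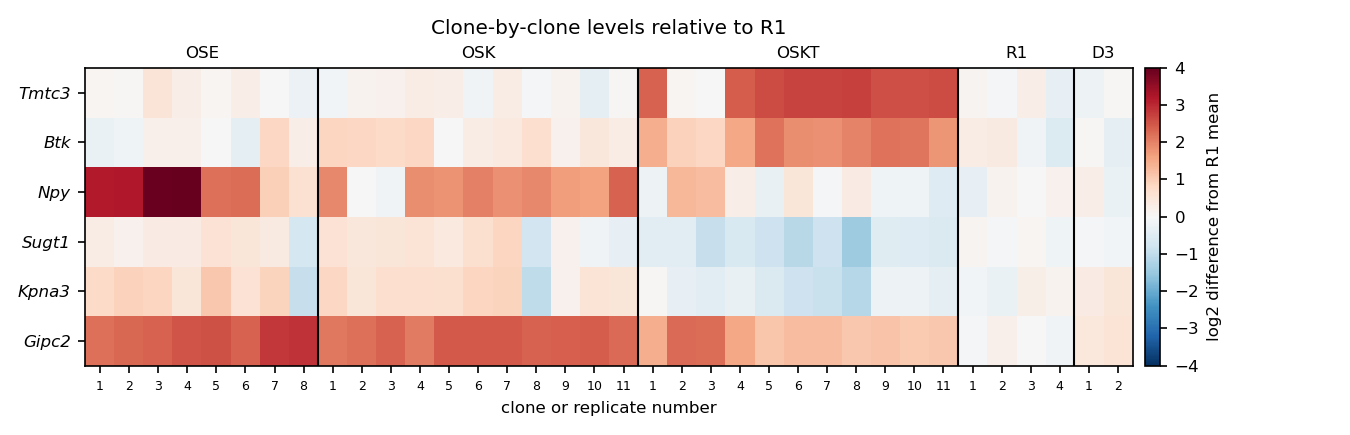
Log2 difference of each gene (rows) from its R1 mean in each array (columns, by group and clone or replicate number), red higher and blue lower. OSKT clones 2 and 3 lack the Tmtc3 signal and hold the Npy signal. Clone 8 of OSE and of OSK shares the low Sugt1 and Kpna3 signals of the OSKT set. R1 was below background for Btk and Npy on all replicates, and for Tmtc3 on all but replicate 3.

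The groups that the choice of genes did not use are OSE, R1 and D3, and the comparisons with R1 all share its 4 arrays. OSE clones were compared with R1 to show whether the 6 genes also depart from ES cells in clones made without Klf4 and Tbx3. In the limma fit 58.7% of all features changed between OSE and R1 (28.7% higher and 29.9% lower, adjusted p under 0.05). Of the 4 members above background on more than 1 array of either group, 2 rose. Gipc2 rose 5.62-fold (log2 2.49, SE 0.17, adjusted p = 1.79e-14 from limma) in 8 of 8 clones. Npy rose at least 3.89-fold (log2 2.55, SE 0.49, adjusted p = 3.16e-05 from limma), also above the R1 mean in 8 of 8 clones, and with near-identical arrays averaged it did not pass (adjusted p = 0.0731). Both genes had OSE values that did not overlap with R1, as had 42.9% of all features.
Kpna3 differed by 0.58 (SE 0.28, adjusted p = 0.0716 from limma) with 7 of 8 clones above the R1 mean. The exception was clone 8, and without it the difference was 0.79 and passed (adjusted p = 0.00331). Sugt1 differed by 0.23 (SE 0.22) and did not pass (adjusted p = 0.385 from limma). Btk was below background on all arrays of both groups, and Tmtc3 passed the threshold on only 1 OSE and 1 R1 array, so neither was compared.

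D3 was compared with R1 to show the spread between ES lines and media. Here 9.73% of features changed. Of the 3 members above background on more than 1 of these arrays, 0 changed in limma (0 also at an unadjusted p under 0.05). Gipc2 differed by 0.48 (SE 0.25, adjusted p = 0.258), Kpna3 by 0.40 (SE 0.39, adjusted p = 0.635) and Sugt1 by -0.08 (SE 0.31, adjusted p = 0.927), all from limma. In a limma fit to these 6 arrays alone, Gipc2 and Kpna3 passed (adjusted p = 0.00506 and 0.0269). That fit called 3345 of the 10533 features, against 1025 in the main fit. Both D3 values of either gene lay above all 4 R1 values. The share of all features that do so was not counted, so nothing is read from this.

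The mean of OSK and OSKT clones, which with 11 clones each does not depend on their difference, was compared with R1 for the 3 genes above background in all these groups. Of all features 55.4% changed in this comparison (26.8% higher and 28.7% lower). Gipc2 rose by 1.86 on the log2 scale (3.64-fold, SE 0.15, adjusted p = 1.29e-12 from limma), being 5.00-fold higher in OSK and 2.64-fold higher in OSKT clones, in 22 of 22 clones. Sugt1 differed by -0.24 (SE 0.20, adjusted p = 0.301 from limma). Kpna3 differed by 0.00 (SE 0.25), with the OSK mean 0.48 above and the OSKT mean 0.48 below R1, and its sign changed with the scaling. For Tmtc3, Btk and Npy the mean follows the set that the choice of genes made high, so it was not tested.

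**Figure D3:**
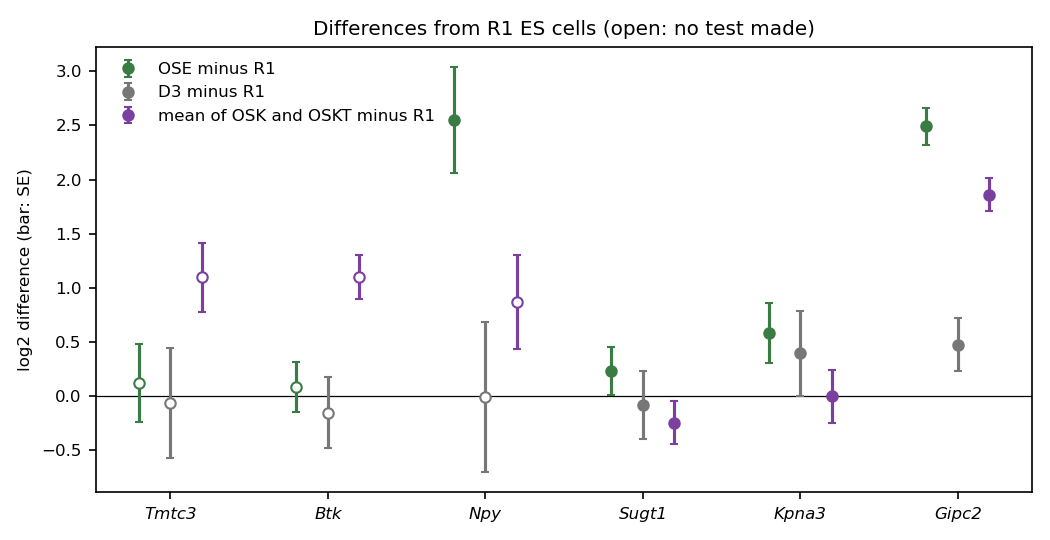
Log2 difference from R1 ES cells (points) with its SE (bars) for OSE, D3 and the mean of OSK and OSKT; open points were not tested. Gipc2 is the gene that stands above R1 in OSE and in the OSK and OSKT clones together (2.49 and 1.86), and Npy stands above R1 in OSE (2.55).

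The difference between OSKT and OSK clones was also read within clones 1 to 4 and within clones 5 to 11. This split was taken from earlier results of these data, the genes were chosen on the same arrays, and what a clone number stands for is not given in the sources used here, so the values are a description with no test. The difference was larger in clones 5 to 11 by 1.53 for Tmtc3 (SE 0.40) and by 1.29 for Btk (SE 0.25), and that of Gipc2 was more negative, by -0.95 (SE 0.17).
For Btk both sets of clones 1 to 4 and OSK clones 5 to 11 were below background. The 1.29 includes a difference of -0.49 between these OSK ranges, so its size is not firm. The change was -1.70 for Npy (SE 0.66), 0.18 for Sugt1 (SE 0.31) and -0.05 for Kpna3 (SE 0.39). Without OSKT clones 2 and 3 the change in Tmtc3 was 0.35 (SE 0.20), so it rested on these clones. Over all features, an interaction fit in limma called 12.6% changed between the ranges (5.36% higher and 7.24% lower), and 5 features in all with near-identical arrays averaged, and no call of a member is read from it.
Of the members, 0 of 6 had OSKT and OSK values that did not overlap, which held for 1.35% of features. In clones 1 to 4 Sugt1 and Kpna3 did not overlap (2 of 6, against 26.7% of features), and in clones 5 to 11 Tmtc3, Btk, Npy and Gipc2 did not (4 of 6, against 14% of features). OSKT clones 5 to 11 did not overlap with OSKT clones 1 to 4 in Tmtc3, Btk and Gipc2 (3 of 6, against 27.4% of features). The rule used these values, so nothing is read from these shares. Of 16 fibroblast markers 15 were measured, with 8 to 11 of the 15 above background. Their summed unscaled level was 9800 to 22982 in OSKT clones 1 to 4 and 5618 to 7178 in OSKT clones 5 to 11. In OSK clones it was 7366 to 9700 in clones 1 to 4 and 3679 to 8248 in clones 5 to 11. These sums are not scaled for array brightness. The 75th percentile of the unscaled signal was 1056.7 in OSKT clone 4, against 378 to 512.8 in OSKT clones 5 to 11. The part of fibroblast markers and of brightness in the result was not tested. In these bulk samples fewer cells with a transcript and less transcript per cell cannot be told apart.

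Sugt1 and Kpna3 lie on the same chromosome, 14 (gene order from RefSeq, GRCm38.p6). Their levels were each other's closest match among tested genes with a symbol (r = 0.906 over 36 arrays). The choice of both for low OSKT signals raises this value. Deviations from group means had r = 0.839, and on that measure Septin7 was closer to Sugt1 (0.883) and Slc25a4 closer to Kpna3 (0.915). The 10 nearest tested neighbours of each member were read. Between OSKT and OSK clones 35.5% of all features passed the test, with 19.5% up and 16% down. Around Kpna3, 7 of 10 neighbours fell and 0 rose (median log2 -0.41), with Ebpl at -0.48 and Spryd7 at -0.68 next to it. Around Sugt1, 6 of 10 fell and 0 rose (median -0.31), with Elf1 at -0.62 and Diaph3 at -0.65 next to it.
Fewer neighbours fell around the other members. Of 10 neighbours, 1 fell and 2 rose around Tmtc3 (median -0.00), 1 fell and 4 rose around Btk (median 0.11), 0 fell and 1 rose around Npy (median -0.00), and 3 fell and 0 rose around Gipc2 (median -0.08).
Between Kpna3 and Sugt1 lie 86 other tested genes, a block chosen after their values were seen. Of these 43 fell and 0 rose, with a median log2 difference of -0.25, against a median of -0.03 for the 231 other genes of the chromosome. The difference lay in clones 5 to 11, where 76 of the 86 genes (88.4%) were lower and the median was -0.43, while in clones 1 to 4 the median was 0.01. In clones 5 to 11, 56.3% of the other genes of the chromosome and 50.7% of all tested genes with a place were lower. Certain genes before Kpna3 were low there too, as Spata13 (-0.82) and Mipep (-0.75), though not Tnfrsf19 (-0.10). The 2 members thus do not mark the ends of the low run. Read array by array against R1, the block median was -0.59 to -0.39 in OSKT clones 5 to 11 and -0.10 to 0.02 on the other 29 arrays. Sugt1 and Kpna3 did not follow this pattern. Against R1, Sugt1 was -0.91 to -0.43 and Kpna3 -0.44 to 0.06 in OSKT clones 1 to 4. R1 replicates themselves ran from -0.27 to 0.23 for Kpna3, a range that overlaps these OSKT clones. The Kpna3 log2 signal was 9.16 to 9.65 in these clones. OSK clones 1 to 4 lay above it (10.09 to 10.45), as did both D3 replicates (9.93 and 10.09). OSE clones 1 to 7 did too (10.09 to 10.69), while OSE clone 8 (8.70) and OSK clone 8 (8.60) lay below it. Relative to R1, Sugt1 was -0.73 and Kpna3 -0.93 in OSE clone 8, and -0.76 and -1.01 in OSK clone 8. The block median was -0.10 to -0.00 in OSKT clones 1 to 4, -0.03 in OSE clone 8 and -0.01 in OSK clone 8.

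**Figure D4:**
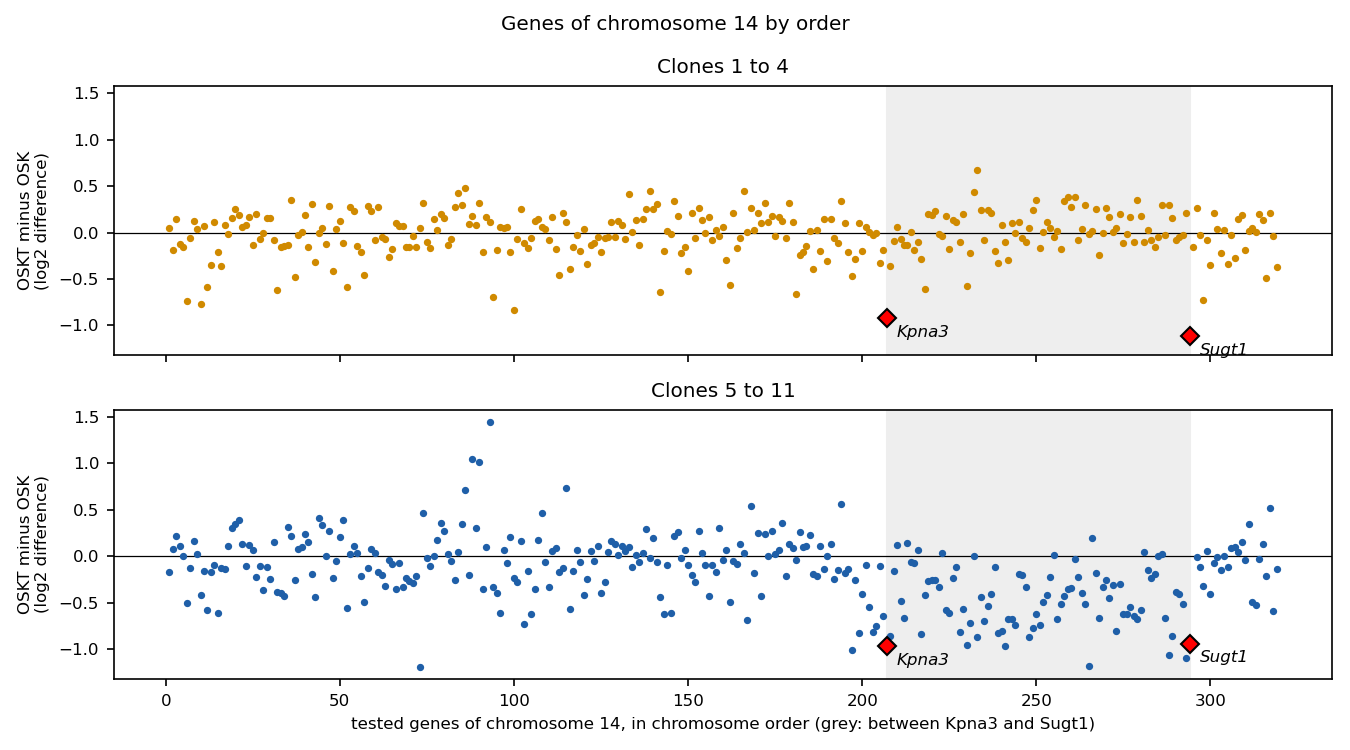
Log2 difference between OSKT and OSK clones (vertical axis) of the tested genes of chromosome 14 in chromosome order (horizontal axis), in clones 1 to 4 (top) and 5 to 11 (bottom); red diamonds are Kpna3 and Sugt1 and grey marks the genes between them. In clones 5 to 11 the 86 genes of the grey block have a median of -0.43, while in clones 1 to 4 their median is 0.01. Sugt1 and Kpna3 are the lowest genes of the chromosome in clones 1 to 4, at -1.12 and -0.92, followed by Psmc6 at -0.84. The rule chose both genes on these arrays, so nothing is read from their place.

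Genes that work with the 6 members were counted in lists that leave the members out, and the shares of all features that rose (19.5%) and fell (16%) are the level to read them against. Of 10 tested genes of the Tmtc family and of O-mannosylation, 0 rose and 2 fell (median log2 -0.01). Those that fell were Cdh1, E-cadherin and so a substrate of the pathway (1.63-fold, adjusted p = 2.38e-07 from limma, 11 of 11 clones below the OSK mean), and Dag1, dystroglycan (1.33-fold, adjusted p = 2.17e-06 from limma). Tmtc2, the other family member tested, differed by -0.05 (adjusted p = 0.583 from limma).
Among 11 tested Tec kinases and genes of B-cell receptor signalling, 1 rose and 1 fell (median -0.05). The lipid phosphatase Inpp5d rose by 0.58 on the log2 scale (adjusted p = 0.0105 from limma) and the transcription factor Gtf2i fell 1.11-fold (adjusted p = 0.0343 from limma), while Tec differed by -0.21 (adjusted p = 0.165 from limma). Of the 3 tested genes of neuropeptide Y and its receptors and processing, Dpp4, a peptidase that trims neuropeptide Y, rose 1.93-fold in 11 of 11 clones (adjusted p = 5.39e-06 from limma), and the receptor Npy2r (0.00) and the carboxypeptidase Cpe (0.06) did not pass.
Of 19 tested genes of Hsp90 and its co-chaperones, 7 rose and 4 fell (median -0.03), with the immunophilin Fkbp4 1.17-fold and Cdc37l1 1.34-fold higher and the endoplasmic reticulum paralog Hsp90b1 1.27-fold lower. Of 14 tested SCF and kinetochore partners of Sugt1, 2 rose and 3 fell (median 0.03), among them the kinetochore subunit Pmf1 (1.30-fold higher), Ndc80 (1.38-fold lower) and the ubiquitin ligase subunit Rbx1 (1.24-fold lower).
Of 19 tested importins and export receptors, 7 rose and 3 fell (median 0.04). The exportins Xpo4 and Xpo6 rose 1.40-fold and 1.29-fold and Xpo7 fell 1.42-fold, while the importin alphas Kpna1 (-0.09) and Kpna4 (0.03) did not pass. Xpo7 is itself one of the 86 chromosome 14 genes between Kpna3 and Sugt1. Its difference was -0.24 in clones 1 to 4 and -0.66 in clones 5 to 11. Of 10 tested Gipc partners and paralogs, 0 rose and 3 fell (median -0.11): the Wnt receptor Fzd7 (1.57-fold), the lipoprotein receptor Lrp1 (1.37-fold) and the G-protein regulator Rgs19 (1.41-fold). The paralog Gipc1 differed by 0.09 and did not pass.

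The genes whose signals were most like each member over the 36 arrays, by Pearson's r as a description, were Siah1b (0.909), Tagln3 (0.907) and Pnma3 (0.883) for Tmtc3. For Btk they were Nrros (0.921), Smtnl1 (0.911) and Pex3 (0.900), and for Npy Ppp4r4 (0.875), Sema3e (0.830) and Mogs (0.822). After Kpna3, Sugt1 was most like Pbk (0.888) and 4833420G17Rik (0.883), and Kpna3, after Sugt1, was most like Txndc12 (0.899) and Ppp1cc (0.880). Gipc2 was most like Rab25 (0.940), Arid3a (0.932) and Hmgcs1 (0.931).
The arrays share groups, which raises such values, so deviations from group means were compared too. Tmtc3 was then most like Siah1b (0.765) and Adat2 (0.755), Btk like Dnajc5g (0.686) and Cfp (0.669), and Npy like Itgb3bp (0.745) and Il33 (0.739). Sugt1 was most like Septin7 (0.883) and Slc25a4 (0.872), Kpna3 like Slc25a4 (0.915) and Rwdd4a (0.906), and Gipc2 like Mgat4b (0.875) and Lgmn (0.871). On that measure Tmtc3 and Gipc2 ran opposite to each other (-0.823), and Sugt1 and Kpna3 ran together (0.839).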

How the data were processed

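RNA from 36 samples was labelled as biotinylated cRNA and read on bead arrays with BeadStudio, per the labels and the submitters' processing notes. The authors deposited unscaled intensity values, used here, of which 25.4% to 29.6% per array were below 0, and a scaled intensity table, used as an alternative. Of 24613 probes, 5893 held placeholder values (between -5.5 and 15.5 on all arrays) and were left out. In limma 3.58.1 (R 4.3.3) signals went through normexp (offset 16), quantile normalization and log2. A probe had to be above background on 4 or more arrays, and the brightest was taken per symbol. One fit to all 36 arrays, with a mean for each group and a variance trend, gave 2-sided p-values, adjusted by Benjamini-Hochberg over 10533 features, and under 0.05 was called. The fit was tested on simulated data. A fold against a group with at most 50% of arrays above background used each array's lowest signal above background and is a bound ("at least"). The members, lists and clone ranges were chosen with earlier results of these data known. The planned test of the change between clone ranges is therefore given without p-values for the members. Named genes were the members, the 3 smallest p per related list with family members, the closest genes by correlation and the adjacent neighbours. Each comparison was repeated under other normalizations, filters, array weights, a replicate block and with arrays left out.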

Additional observations from a re-analysis of the deposited data

Results flagged for a closer look

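Sugt1 in OSE clone 8 (8.39) and Kpna3 in OSE clone 8 (8.70) lay apart from the other 7 clones of their set by more than Dixon's limit at 95%. In all 12 groups of 4 to 10 arrays were tested for the 6 genes, and chance alone marks about 1 in 20. OSKT clone 8 was the lowest of its set in both genes too. In clones 5 to 11 the difference between OSKT and OSK clones was larger than in clones 1 to 4 for Tmtc3 (1.53) and Btk (1.29). Only OSKT clones 5 to 11 were above background for Btk. The difference was more negative for Gipc2 (-0.95). The planned interaction fit in limma marked these 3, but the genes and the split were chosen on these same arrays, so it supports nothing about them.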

How the results depend on the processing

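Of 803 values recomputed under alternatives, 737 kept their direction and their side of the threshold or stayed within the spread of the main value. The OSKT minus OSK difference of the dim genes moved most with the background step: Tmtc3 was 3.24 and Npy -2.36 in the scaled table, and without background correction Tmtc3 was 3.14, Npy -2.30 and Btk 1.82. When near-identical arrays were averaged, R1 and D3 kept 1 sample each, assumed to vary like the other groups, and the features called fell to 1362 for OSKT minus OSK, 2921 for OSE minus R1, 59 for D3 minus R1, 2453 for the mean of OSK and OSKT minus R1 and 5 for the change between clone ranges. Npy in OSE minus R1 was then 2.20, and the change between clone ranges was 1.49 for Tmtc3, 1.31 for Btk and -0.96 for Gipc2, none of which passed, and 0.12 for Kpna3. A fit to the compared groups alone gave 3345 features for D3 minus R1, with Gipc2 at 0.48 and Kpna3 at 0.40 passing, and -1.70 for Npy between clone ranges, which passed. Array weights gave 3562 features for D3 minus R1 and 2647 between clone ranges, and passed Kpna3 (0.78) and Sugt1 (0.36) in OSE minus R1, Gipc2 (0.48) in D3 minus R1, Sugt1 (-0.29) in the mean minus R1 and Npy (-1.82) between clone ranges. Scaling to a common median gave 3240 features between clone ranges (197 higher and 3043 lower, against 565 and 763) with a median of all features of -0.21, and turned Sugt1 there to -0.11. It gave 2199 higher and 1037 lower for OSKT minus OSK (against 2058 and 1683), 1958 higher and 3938 lower for the mean minus R1 (against 2819 and 3021, median of all features -0.11), and 230 higher and 514 lower for D3 minus R1 (against 488 and 537). The scaled table gave 302 higher and 549 lower for D3 minus R1, and 293 and 666 between clone ranges. The mean minus R1 of Kpna3, 0.00, turned to -0.19 with median scaling, -0.015 without background correction, -0.033 with near-identical arrays averaged, -0.023 with array weights and -0.0098 without OSKT clones 2 and 3. Without background correction Npy between clone ranges was -3.24 and passed. In alternatives chosen after seeing the data, leaving out OSE clone 8 and OSK clone 8 passed Kpna3 in OSE minus R1 (0.79) and Npy between clone ranges (-1.70), and leaving out OSKT clones 2 and 3 gave 524 features between clone ranges and 0.35 for Tmtc3, which did not pass. The cause of these changes was not tested. Calls of members between clone ranges support nothing, in the planned fit and in every alternative given here or below. The genes and the split were chosen on these same arrays.

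With single arrays left out, D3 minus R1 called 315 to 859 features (315 without D3 replicate 1 and 362 without replicate 2), Kpna3 in OSE minus R1 ran from 0.49 to 0.79 (highest and passing without OSE clone 8), its mean minus R1 from -0.088 to 0.077, its change between clone ranges from -0.28 to 0.048, and Npy between clone ranges from -2.04 (passing without OSK clone 1) to -1.35. The replicate numbers did not meet the limit for pairing, although clone 8 was low in Sugt1 and Kpna3 in all 3 iPS sets: same-numbered OSK and OSKT clones had deviations that correlated at 0.01 to 0.63, and 2 of 11 correlated best with their own number. With the replicate number as a block, Kpna3 in OSE minus R1 (0.79) and Npy between clone ranges (-1.70) passed, and no other call of a member changed. The second Tmtc3 probe, planned as an alternative, was not run, since it held placeholder values and the other members have 1 probe. Signal over background limits Btk, Tmtc3 and Npy, whose low groups have only a bound.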
